A study of Mus musculus with 2 samples.

Results

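The ERK feedback genes are the phosphatase genes Dusp4, Dusp5, Dusp6 and Dusp7, the Sprouty genes Spry1, Spry2 and Spry4, the SPRED genes Spred1 and Spred2, and the transcription factor gene Etv5. They were taken as every probe outside the controls whose gene name on the array was 1 of these 10 symbols, out of 37074 gene names, which gave 16 probes of 56605. The question was whether the other genes differ together with Dusp5 between heated and control blood. The difference of Dusp5 was known from these same arrays when the set was drawn up, so the values below describe the set and support nothing beyond it.

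The tested sample was mouse blood that, per the labels, was kept in a water bath at 37 °C for 1 h and then at 38.5 °C for 1 h, and the other was control blood with no temperature or time stated. The labels do not give strain, sex or age, nor whether living mice or drawn blood went into the bath, and the effects of heat, of the pretreatment and of handling cannot be told apart. Both samples shared the lysis that separates red from white cells, the removal of globin transcripts, and Cy3 labelling of 0.5 µg of RNA. The labels mention 3 replicates, but a single array per group was analysed here. No difference therefore has a replicate check or a p-value, and the number of arrays limits the precision.

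ERK is the last kinase of the cascade that runs from growth factor receptors through RAS, RAF and MEK, and it switches on genes whose products then damp the same cascade. The dual-specificity phosphatases remove the activating phosphates from ERK, Sprouty proteins block the signal between receptor and RAF, and SPRED proteins hold RAS down at the membrane. Because many of these genes are transcribed after ERK is activated, their mRNA levels are often read as a gauge of ERK output. In monocytes and macrophages the cascade lies downstream of the receptor for macrophage colony-stimulating factor, among others.

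The 2 arrays were similar in quality: the share of probes well above background was 53.8% for heat and 52.0% for control, the lowest signals that counted as such were 24.9 and 31.0 units (heat and control), and no spot was saturated. All 10 monocyte and macrophage markers were detected on both arrays, with differences of -0.13 to 0.73 and a median of 0.05 on the log2 scale (heat minus control). The highest was Ccr2, a chemokine receptor of inflammatory monocytes, with 113 units in heated blood, against 69.9 units in control blood (0.73, error 0.25). Defining markers of other blood cells were in part absent: 0 of 7 erythroid markers (globin transcripts had been removed), 2 of 6 B cell markers and 2 of 6 platelet markers were detected on each array, and Alas2, Cd79a, Ms4a1 and Itga2b were among those not well above background. T cell markers were detected for 6 of 8 genes, neutrophil markers for 5 of 8 and NK cell markers for 2 of 6, with the same counts on both arrays. These counts do not give levels. In heated blood the T cell markers Cd3d, Cd5 and Lck had 59.4, 54.3 and 82.5 units, although Il7r had 21059. The neutrophil markers S100a8 and Csf3r had 1762 and 51463 units there. Among the monocyte and macrophage markers, Csf1r had 115918 units at its brighter probe, while Ccr2 had 113. Not detected on either array were Cd3g and Cd8a of the T cell list and Cxcr2, Ly6g and Retnlg of the neutrophil list. Ncr1, Gzma, Gzmb and Eomes of the NK cell list were likewise not detected. The T cell markers differed by -0.45 to 0.29. Of the 2 measured NK cell markers, Klrb1c differed by -0.01 (error 0.27) and Prf1, which encodes perforin, by -1.68 (error 0.28). Prf1 had 46.0 units in heated blood, against 152 units in control blood, and 0.453% of all genes were at or below -1. The part of these cell types in the results below was not tested. Fewer cells of a type and less RNA per cell cannot be told apart in such bulk samples.

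The sequences that matter most here are those of the probes behind Dusp5, Spry1 and Dusp6, the 3 genes farthest from 0. The first 30 of the 60 bases of each are shown, 5′ to 3′, with no part marked by capitals. Positions are mm9, the build in the file headers, and both Dusp5 probes lie on the plus strand of chromosome 19, with starts 1097 bases apart.
Dusp5, probe A_66_P120606, chr19:53616779-53616838, plus strand, made to an Ensembl transcript: cagggggaaaggcaataagttcccgtaaac
Dusp5, probe A_55_P2063237, chr19:53615682-53615741, plus strand, made to a RefSeq transcript: tacagacactgagccctgatatgcagggca
Spry1, probe A_51_P490136, chr3:37543194-37543253, plus strand, made to a RefSeq transcript: agctgagtatttccaacccttcctgtgttt
Dusp6, probe A_51_P502614, chr10:98729985-98730044, plus strand, made to a RefSeq transcript: catttggtggatgcaacaggttgagaggaa

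Dusp5, which encodes a phosphatase that dephosphorylates ERK in the nucleus and holds it there, was the lowest of the set in heated blood. Its probe A_66_P120606 had a processed signal of 434 units on the heat array, against 784 units on the control array. The scanner software's own errors for these signals were 43.7 and 78.7 units (heat and control), so the 2 signals lay apart by more than their errors. At bright probes this error was close to a fixed share of the signal, such as 820 of 8199 units for Dusp6 in heated blood. It is the software's own figure and not a spread measured between spots, arrays or animals. After each array was scaled to its 75th percentile, the difference was -0.81 on the log2 scale with a scanner error of 0.21, or 1.76-fold lower in heated blood. It ranked 138th from the lowest of the 18562 genes measured, meaning those with 1 or more probes that passed background on each of the 2 arrays, or within the lowest 0.743%. Among the 3311 probes whose mean level lay within 0.5 log2 units of this one, 11 (itself included) were as low, or 0.332%.

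The other Dusp5 probe gave no measured difference. Probe A_55_P2063237 had 10.6 units on the heat array, against 15.2 units on the control array, and was not well above background on either. The 2 probes of this gene therefore disagree on whether its transcript was detected, and the Dusp5 value rests on 1 probe and 1 spot per array. With normexp background correction the difference was -0.65 or -0.68, with dim probes kept it was -0.65, and it lay between -0.85 and -0.65 over all 12 processing alternatives.

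**Figure D1:**
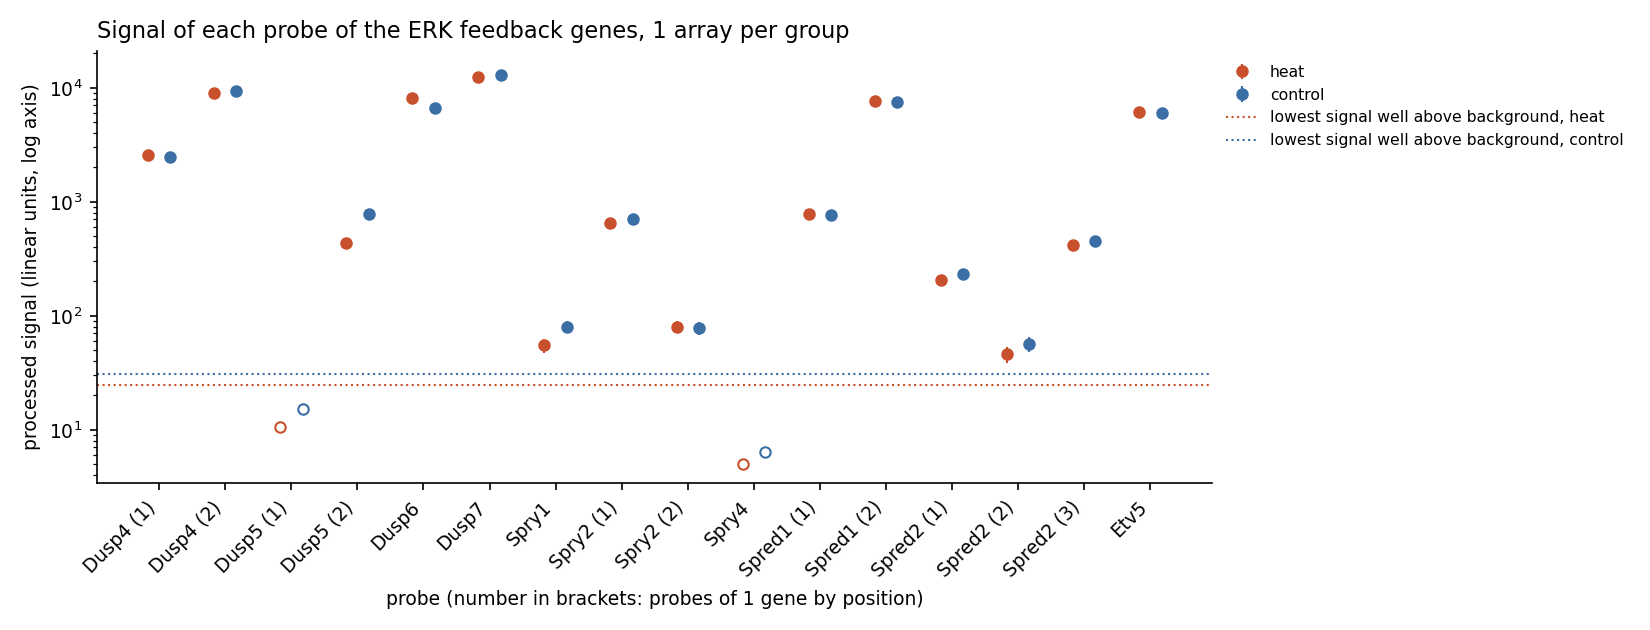
Processed signal (linear units on a log axis) of each of the 16 probes, heat beside control, with 1 array per group. Bars are the scanner software's errors, open circles are signals not well above background and carry no bar, and dotted lines mark the lowest signal that counted as well above background. The Dusp5 probe A_66_P120606, marked (2), shows the widest gap among filled points, while the Dusp5 probe A_55_P2063237, marked (1), and the Spry4 probe lie under both lines.

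The other phosphatase genes did not share the lower value of Dusp5, and Dusp6 stood on the other side of 0. Dusp6, whose product dephosphorylates ERK in the cytoplasm, had 8199 units in heated blood, against 6628 units in control blood. The difference was 0.35 with a scanner error of 0.20, or 1.69 errors from 0. It ranked 897th from the highest of 18562 genes, and 25 of 2032 probes of like level were as high (1.23%). Dusp6 was higher under all 12 alternatives, between 0.31 and 0.42.

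Dusp4, a nuclear phosphatase of ERK and other MAP kinases, had 2 usable probes that straddled 0. Probe A_51_P518051 (chr8:35882045-35882104, plus strand) had 2549 units in heated blood, against 2494 units in control blood, a difference of 0.07. Probe A_51_P347333 (chr8:35884806-35884865, plus strand) had 9012 units in heated blood, against 9441 units in control blood, a difference of -0.03. Both lay within their scanner error of 0.20, and the gene mean of 0.02 changed sign under 4 of 12 alternatives. Dusp7, a cytoplasmic phosphatase of ERK, had 12561 units in heated blood, against 12918 units in control blood (probe A_52_P173197, chr9:106277697-106277756, plus strand). After scaling its difference rounded to 0.00, with an error of 0.20, so the groups were indistinguishable for Dusp7 and for Dusp4.

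Among the Sprouty genes, which encode membrane-associated inhibitors of receptor signalling, Spry1 was lower in heated blood and Spry2 was not distinguishable. Spry1 had 54.9 units in heated blood, against 80.5 units in control blood, with scanner errors of 7.64 and 10.2 units. Its difference was -0.51 with an error of 0.27, which is 1.89 errors from 0 and 1.43-fold lower. Among the 3650 probes of like level, 5.81% were as low, which is a larger share than for Dusp5 at its level. With the 2 normexp settings the difference of Spry1 was -0.19 and -0.25, and it lay between -0.56 and -0.51 under the other 9 alternatives that measured it.

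Spry2 had 2 probes on the minus strand of chromosome 14. At chr14:106291385-106291444 the signal was 653 units in heated blood, against 700 units in control blood, a difference of -0.06 with an error of 0.20. At chr14:106291901-106291960 it was 80.5 units in heated blood, against 77.5 units in control blood, a difference of 0.09 with an error of 0.25. The mean of 0.02 turned sign under 8 of 12 alternatives. Spry4 had 1 probe, with 5.05 units in heated blood, against 6.41 units in control blood. These signals were no larger than their errors of 5.06 and 6.43 units, neither was well above background, and no difference is given for Spry4.

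The SPRED genes were close to 0. Spred1, whose product brings the RAS inhibitor neurofibromin to the membrane, had 778 units in heated blood, against 760 units in control blood, at probe A_52_P637689 (chr2:116997721-116997780, plus strand). Its second probe, A_51_P119857 (chr2:117007850-117007909, plus strand), had 7614 units in heated blood, against 7561 units in control blood. The differences of 0.07 and 0.05 agree within the error of 0.20 at each probe, and the gene mean of 0.06 kept its sign under all 12 alternatives. Spred2, a related inhibitor of RAS and RAF signalling, was lower at each of its 3 probes, but by less than the error at each. Its signals were 205, 46.1 and 417 units in heated blood, against 233, 56.7 and 453 units in control blood, in order of position on chromosome 11. The differences were -0.14, -0.26 and -0.08 with errors of 0.21, 0.31 and 0.21, and the gene mean was -0.16 (error 0.14), or -0.05 and -0.10 with the 2 normexp settings. The first of these probes lies at chr11:19880739-19880798 and the third at chr11:19922416-19922475, both on the plus strand. The coordinates of the second (chr11:19905935-19908456) span 2522 bases for a probe of 60, so the stretches it matches are not contiguous in the genome.

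Etv5, an ETS transcription factor of the PEA3 group that is transcribed after ERK activation, did not differ beyond its error. The signal was 6081 units in heated blood, against 6052 units in control blood (probe A_55_P2037454, chr16:22381387-22381446, minus strand), a difference of 0.05 with an error of 0.20. With the 2 normexp settings it was -0.12 and -0.11. For the members as a whole the files give a transcript record and a position for each probe, and no statement of exon or untranslated region.

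**Figure D2:**
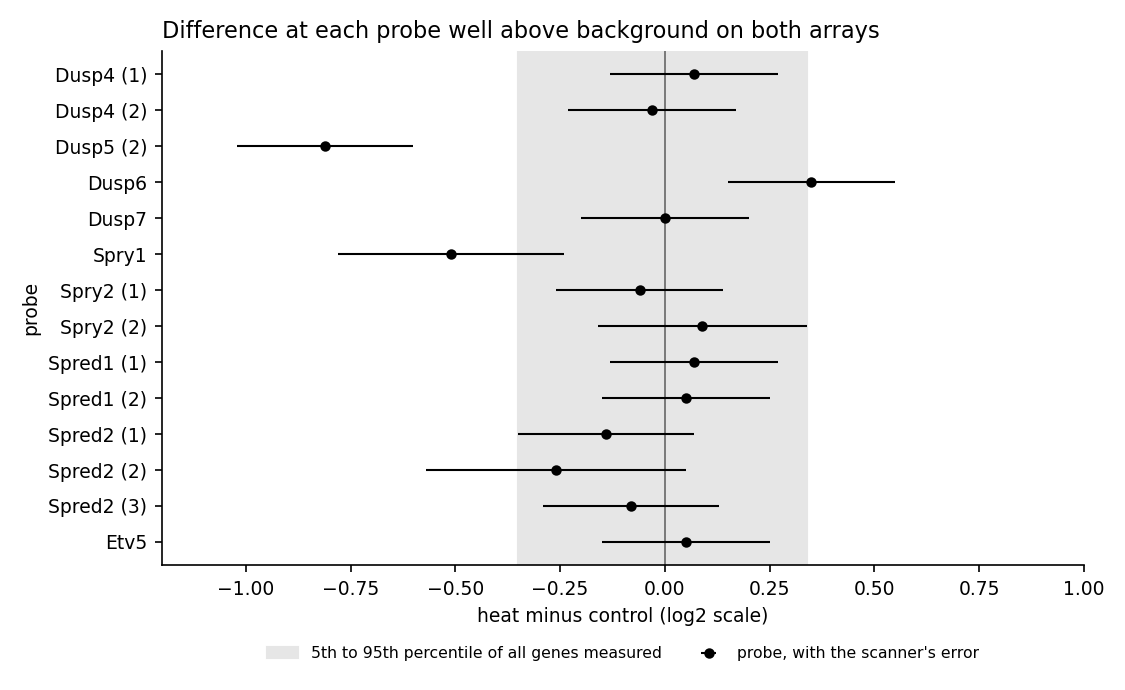
Heat minus control on the log2 scale for each of the 14 probes well above background on both arrays. Bars are the scanner errors carried to the difference, and the grey band is the 5th to 95th percentile of all 18562 genes, -0.35 to 0.34. Dusp5 and Spry1 lie below the band and Dusp6, at 0.35, lies at its upper edge.

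The set did not differ as a block. Of the 9 measured genes, 4 were lower in heated blood (Dusp5, Dusp7, Spry1 and Spred2) and 5 were higher, while 47.8% of all genes were lower and 52.2% higher. Of the 14 usable probes, 8 were lower, beside 48.2% of all probes. The count of 4 depended on genes near 0: it was 6 of 9 without scaling, with both normexp settings and with the brightest probe per gene. Among the brighter 50% of probes it was 3 of 7, since Spry1 and Spred2 had no value there and Spry2 was at -0.06. The median over the 9 genes was 0.02, and 0.02 without Dusp5, beside 0.008 over all genes. At or below -0.5 were Dusp5 and Spry1, 2 of 9, where 2.52% of all genes lay that low, and since Dusp5 was chosen on this contrast nothing is read from that count. No member was at or above 0.5 (1.86% of all genes were), and none was 2-fold lower (0.453%) or 2-fold higher (0.21%). Only the Dusp5 probe lay at least 2 scanner errors below 0, 1 of 14 member probes, as did 2.3% of all 28755 usable probes, and none of the 14 lay as far above 0 (2.05%).

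Set against Dusp5 directly, the remaining genes lay above it by 0.30 to 1.16 log2 units. The smallest gap was that of Spry1, 0.30 with a combined error of 0.34, so the values of Spry1 and Dusp5 were not separated by their errors. Spred2 lay 0.65 above Dusp5 with a combined error of 0.25, and Dusp6 lay 1.16 above with an error of 0.29. The other 5 lay between 0.81 and 0.87 above Dusp5, with errors of 0.25 to 0.29. At spots of the same probe, the pooled SD of the heat minus control difference was 0.074 for signals over 1000 units, 0.128 for 100 to 1000 units and 0.206 under 100 units. These SDs came from 269, 6 and 10 probes printed at several spots, with 2444, 56 and 79 usable spots, and they cover the spread within an array pair only, not the spread between animals or cultures.

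**Figure D3:**
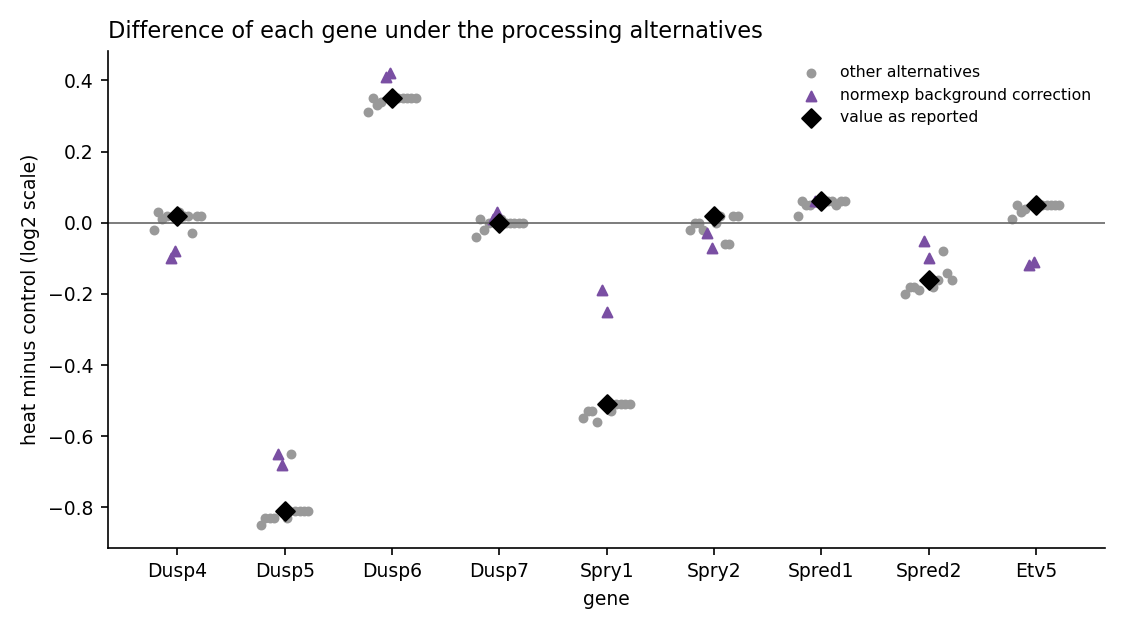
Heat minus control on the log2 scale for the 9 measured genes as reported (diamonds), with normexp background correction (triangles) and under the other alternatives (grey). Dusp5 and Spry1 are below 0 and Dusp6 is above 0 in every setting that measured them, whereas Dusp4, Dusp7, Spry2 and Etv5 have settings on both sides of 0.

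Promoter sequences from RefSeq (GRCm38.p6, a different build from the probe positions) matched 8 of the 10 genes, with 9 starts in all. The 250 bases before the start are printed for Dusp5 and Spry1, the 2 members at or below -0.5, to show what the pair shares and does not share. Capitals mark GC boxes (GGGCGG on either strand, the site bound by SP1) and CArG boxes, the element bound by serum response factor.
Dusp5, chr19:53528895-53529144, plus strand: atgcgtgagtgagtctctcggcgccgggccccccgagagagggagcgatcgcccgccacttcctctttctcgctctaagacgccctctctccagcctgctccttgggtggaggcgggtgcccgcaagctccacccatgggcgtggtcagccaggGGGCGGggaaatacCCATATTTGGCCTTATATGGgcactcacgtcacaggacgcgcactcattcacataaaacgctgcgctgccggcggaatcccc
Spry1, chr3:37639697-37639946, plus strand: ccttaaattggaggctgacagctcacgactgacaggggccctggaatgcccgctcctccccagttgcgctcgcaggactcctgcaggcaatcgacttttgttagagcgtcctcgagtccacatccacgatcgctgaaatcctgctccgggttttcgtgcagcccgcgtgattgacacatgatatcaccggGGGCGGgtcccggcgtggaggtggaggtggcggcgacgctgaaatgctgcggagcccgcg

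Each of these 2 windows held 1 GC box, which was found in 5 of the 9 member windows and in 32.7% of 32851 RefSeq windows of this length. The Dusp5 window held a pair of CArG boxes end to end, CCATATTTGG from 82 to 73 bases before the start and CCTTATATGG from 72 to 63 bases before it. A CArG box was found in 1.47% of all windows and in no other member window. The CArG search was added after the Dusp5 letters had been read. An ETS sequence, CCGGAA (12.0% of all windows, both strands), and the longer CCGGAAGT that contains it (2.88%) were found in none of the 9. Other forms of the ETS site were not searched. The cyclic AMP response element TGACGTCA (1.55%) and the AP-1 sequence TGANTCA (6.75%) were also found in none of the 9. A match or its absence describes these letters in this window alone.

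Other genes of the cascade and of its sister branches, JNK and p38, were about evenly divided. Of 110 genes listed by role, 15 of them kinases of the sister branches, 101 were measured, 54 higher and 47 lower in heated blood (46.5% lower, beside 47.8% of all genes), with a median of 0.01. At least 0.5 higher were 3 of them, and 3 were at least 0.5 lower (2.97% each), beside 1.86% and 2.52% of all genes, with none at or past 2-fold.

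Most of the other dual-specificity phosphatase genes were lower in heated blood by small amounts. Of 11 such genes, 10 were measured, 1 higher and 9 lower, beside 47.8% of all genes lower, with a median of -0.23 and a range from -0.38 to 0.10. Dusp3 and Dusp9, counted as lower, were both at -0.02, and with each normexp setting 8 of 10 were lower. Dusp10 was detected on the control array alone. Dusp18 had 74.0 units in heated blood, against 99.1 units in control blood (-0.38, error 0.25, or -0.16 and -0.22 with normexp and -0.25 with dim probes kept). Dusp8, a phosphatase of JNK and p38, had -0.33 over 2 dim probes, or -0.13 and -0.19 with normexp, and Dusp2, a nuclear phosphatase induced in activated leukocytes, had 1130 against 1403 units (heat and control), a difference of -0.27 with an error of 0.20. Dusp1, an immediate early phosphatase, had 2871 units in heated blood, against 3226 units in control blood (-0.13). None of these differences reached 2 scanner errors, and the list's median was -0.11 and -0.13 with the 2 normexp settings and -0.07 over the 4 genes left among the brighter 50% of probes. The remaining family members Spry3 (46.8 against 40.2 units, heat and control) and Spred3 had differences of 0.26 and 0.37, with errors of 0.36 and 0.23. Both were dim, and the median of the pair was 0.20 and 0.13 with the 2 normexp settings.

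Receptors that feed ERK in myeloid cells were measured for 9 of 12 genes, 7 higher and 2 lower, beside 52.2% of all genes higher, with a median of 0.13. That median was 0.04 and 0.03 with the 2 normexp settings and 0.03 with the brightest probe per gene or with dim probes kept. Csf1r, which drives monocyte and macrophage survival, differed by 0.17 (error 0.14), with 0.03 at its brighter probe and 0.32 at its dimmer one. Kit, the receptor for stem cell factor, had 78.7 units in heated blood, against 54.4 units in control blood (0.57, error 0.28), at 1 of its 3 probes. The Kit value was 0.33 and 0.27 with normexp and 0.04 with dim probes kept. Mertk, a receptor for the uptake of dying cells, differed by 0.36 and Met, the hepatocyte growth factor receptor, by -0.27, or by -0.56 with dim probes kept. Pdgfra and Pdgfrb were not detected on either array.

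Of the adaptors and exchange factors that load RAS, all 17 were measured. Among them 9 were higher and 8 lower, beside 52.2% of all genes higher, with a median of 0.00. Gab1, a docking protein, had 0.38 at 69.7 units in heated blood, against 54.9 units in control blood, and 0.19 with normexp and quantile normalization. The exchange factor genes Rasgrp4 and Rasgrp3 had 0.35 and 0.31, and in both the 2 probes disagreed, with 0.59 and 0.11 for Rasgrp4 and 0.60 and 0.02 for Rasgrp3. All 13 RAS GTPases and their inactivators were measured, 9 higher and 4 lower, beside 52.2% of all genes higher. Their median was 0.08, with nothing beyond 0.21 in size. Rasal3, a RAS inactivator of blood cells, and the GTPase gene Rras both had 0.21, and Hras had -0.21.

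Most kinase genes of the cascade named here were close to equal. Mapk3, which encodes ERK1, differed by 0.09 with an error of 0.20. Braf, a RAF kinase gene, differed by 0.00 as a mean over 5 probes that ran from -0.22 to 0.29. The MEK genes Map2k1 and Map2k2 differed by -0.20 and 0.12, with errors of 0.14 and 0.15. Map2k2 had -0.02 at its brighter usable probe and 0.25 at its dimmer one. The 16 kinases and scaffolds divided into 9 higher and 7 lower (median 0.02), beside 52.2% of all genes higher.

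The RSK kinase genes Rps6ka2 and Rps6ka3, whose products are phosphorylated by ERK, had the highest values of that list. Rps6ka2 was higher by 0.75, with 493 against 247 units (heat and control) at 1 probe, a difference of 1.03, and 110 against 81.4 units at another, a difference of 0.47. With its dim probe kept, Rps6ka2 had 0.43. Rps6ka3 had a mean of 0.60 that came from 1 probe, with 3755 units in heated blood, against 989 units in control blood (1.96, error 0.20). Its other usable probes had 0.03 and -0.20, so the 3 probes of Rps6ka3 disagree.

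Transcripts that respond to ERK were measured for 21 of 24 genes. Of these, 8 were higher and 13 lower, beside 47.8% of all genes lower, with a median of -0.04. Fosl1, a FOS family subunit of AP-1, had 140 units in heated blood, against 224 units in control blood (-0.64, error 0.22). Ccnd1, which encodes cyclin D1 of the G1 phase, had 17526 units in heated blood, against 26868 units in control blood (-0.58, error 0.20). Hbegf, a growth factor of the EGF family, had 95.5 units in heated blood, against 139 units in control blood (-0.50, error 0.23) at 1 probe. The other Hbegf probe passed background in heated blood alone, at 31.5 units, against 6.96 units in control blood, and with dim probes kept the mean of the gene became 0.86. The rest of the named transcripts were nearer to 0, with Fos at -0.13, Egr1 at 0.06 and Etv4, a close relative of Etv5, at 0.15 (-0.03 with dim probes kept).

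**Figure D4:**
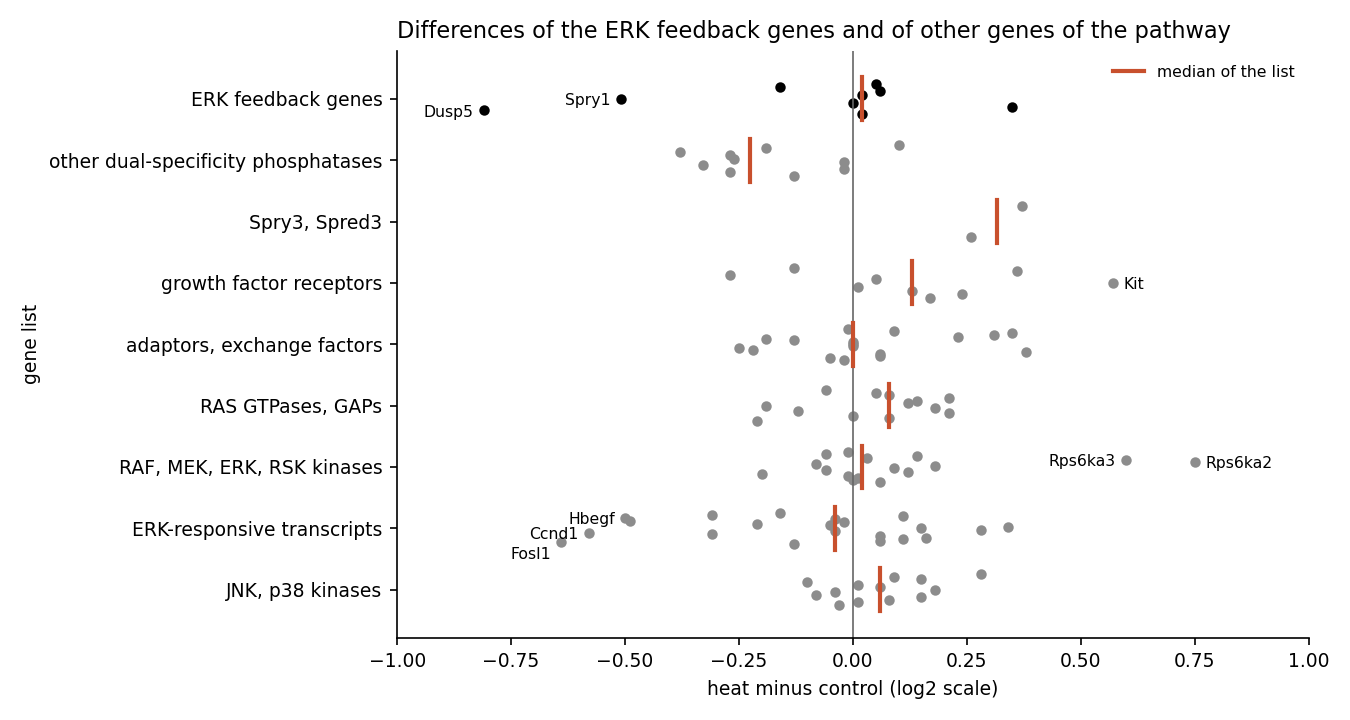
Heat minus control on the log2 scale for each measured gene, with the ERK feedback genes in black at the top, the other lists in grey and each list's median as a bar. Genes at least 0.5 from 0 are named. Medians lie between -0.23 (other dual-specificity phosphatases) and 0.31 (the pair Spry3 and Spred3), with that of the feedback genes at 0.02.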

How the data were processed

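Each sample was hybridised to 1 one-colour Agilent array, read per the file headers with Agilent Feature Extraction 10.7.1.1 (the submitters' processing notes name version 9.1). The deposited scanner files hold linear intensity values, namely a processed signal, its error, a mean signal and a local background, and the flags for other spot properties are also deposited there. A value table of log2 values, likewise deposited by the authors, matched quantile-normalized log2 processed signals of the same array (r = 1.0 for each, median 5.27). After outlier spots had been dropped (168 for heat, 149 for control), spots of the same probe were averaged on the log2 scale. Each array was scaled by subtracting its own 75th percentile over probes (604 units for heat, 620 for control). Probes well above background for heat and for control alike (28755) were averaged by the gene name in the array files, giving 18562 genes. Of these names, 13137 were current RefSeq gene symbols, and all were counted as genes in the ranks and shares. A single usable probe stood behind 12009 of the 18562. Of the 16 member probes, 13 had a transcript record among RefSeq records. The scanner error of a difference combines the relative errors of both signals. With 1 array per group there was no test. Members and gene lists were chosen with earlier results of these data known. The text names all members, the 3 genes of each list farthest from 0 and preset core genes of the cascade, some of which are not reported here. The gene summary was tested on simulated data. The shifts planted there were larger than the difference of any member, so that test does not cover differences as small as the members'. The 12 alternatives varied the scaling, the background correction, the filter on dim probes, the rule for several probes of a gene, the naming of probes, and the use of the authors' table. The tools were Python 3.11.15 with matplotlib 3.10.9, pandas 2.3.3 and numpy 2.4.6, and R 4.3.3 with limma 3.58.1 and the package data.table (version 1.17.8).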

Additional observations from a re-analysis of the deposited data

How the results depend on the processing

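The number of members lower in heated blood beside Dusp5 was 3 of 8 as reported and 5 without scaling, with normexp and the 75th percentile, with normexp and quantile normalization, and with the brightest probe per gene, because Dusp4, Spry2, Dusp7 and Etv5 lie near 0. The median over the members was 0.02 as reported and -0.08 with normexp and quantile normalization. Hbegf turned to 0.86 with dim probes kept, since that adds its probe at background on the control array. Over 12 alternatives, Dusp5, Spry1, Spred1, Spred2 and Dusp6 kept their signs wherever they were measured. Spry1 and Spred2 had no value among the brighter 50% of probes. No paired analysis was possible because each group held 1 array. Keeping dim probes also turned Map2k6 to -0.56 and Etv4 to -0.03. Dim signals limit Spry1, Spry4, the dimmer Spry2 probe, the Spred2 probe A_51_P499683 and the Dusp5 probe A_55_P2063237. That Spred2 probe had 46.1 units in heated blood, against 56.7 units in control blood. Its difference was -0.26, or -0.04 and -0.10 with the 2 normexp settings.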

Other observations

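The sister branches of the MAP kinase family, JNK and p38, were close to equal in heated and control blood. Of 15 kinase genes of these branches, 13 were measured, 9 higher and 4 lower in heated blood, beside 52.2% of all genes higher. Their median was 0.06, with a range from -0.10 to 0.28. Mapkapk3, a kinase activated by p38, had the largest difference at 0.28 (0.17 and 0.14 with normexp), with 3846 units in heated blood, against 3211 units in control blood, at its brighter probe. Map2k6, an activator of p38, differed by 0.18 at its usable probe (521 units in heated blood, against 472 units in control blood), and by -0.56 with its dim probe kept. Mapk14, which encodes p38 alpha, differed by 0.15, with -0.08 at its brighter probe and 0.38 at its dimmer one. Mapk12 and Mapk13 were not detected on either array.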
